A study of Mus musculus with 12 samples.

Results

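The endoplasmic reticulum (ER) stress and integrated stress response was followed through 35 genes, listed by name, in the livers of mice given concanavalin A (Con A). All 35 were found by symbol among the 11289 genes of the deposited table. They fall into 14 ER chaperones and folding enzymes, 2 ER oxidases, 9 genes of ER-associated degradation (ERAD) and translocation, 3 stress sensors with the transcription factor Xbp1, and 6 genes of the Atf4-Ddit3 branch. Con A is a plant lectin that activates T cells and causes immune-mediated hepatitis in mice. C57BL/6J mice of 8 to 10 weeks by the labels, male by the study's methods, formed 3 groups of 4. Control mice received neither Con A nor cells by the labels. Con A + PBS mice received 15 mg/kg Con A by the tail vein and 200 µL PBS 30 min later, and Con A + hWJ-MSCs mice received the same Con A and, after the same 30 min, 2000000 human Wharton's jelly mesenchymal stem cells in 200 µL by the labels. The study's methods give fewer cells and younger mice than the labels. Liver RNA was taken 24 h after Con A, and each group is made of separate mice of 1 inbred strain.

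Proteins that enter the ER are folded there by chaperones such as BiP (the product of Hspa5), and a surplus of unfolded protein is sensed by 3 membrane proteins, Ire1 (Ern1), Perk (Eif2ak3) and Atf6. Ire1 splices Xbp1 mRNA, and spliced Xbp1 and cleaved Atf6 raise chaperone and ERAD genes. Perk, like 3 other kinases, phosphorylates eIF2, which lowers translation in general but raises that of Atf4, and Atf4 with Ddit3 (Chop) raises genes of amino acid supply, feedback and cell death. Hepatocytes secrete most plasma proteins and hold much ER. Gene-level RNA shows neither the splicing of Xbp1, the cleavage of Atf6, the phosphorylation of eIF2 nor the translation of Atf4.

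The deposited values are whole numbers already normalized between mice, not read counts. Every mouse has a median value of 352 and a total between 17649654 and 17657159, so sequencing depth is unknown and no counting error can be given. The highest values lie on shared steps. The 1200 values of at least 20000 take only 82 different values, and 10 genes share the largest value, 341028, in each mouse. Of the chaperones, 6 reach this range, so their differences are coarse. A change near the top can be limited, or enlarged by the wide gaps between steps, as from 72892 to 148316 to 341028 in Hspa5. Of 15 hepatocyte markers, 15 are in the table, with summed values of 1839758 to 2119740 in the control group, 1170236 to 1198519 after Con A + PBS and 1182099 to 1298537 with hWJ-MSCs. Part of these sums did not change, since Alb reads 341028 and Cps1 147960 in all 12 mice. A change too small to leave a shared step would not show. In bulk liver, fewer cells of a type and less RNA per cell cannot be told apart.

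After Con A + PBS all 14 chaperones and some genes of every other role rose. Of the 35 members, 24 were called higher than in the control group, 0 were called lower and 11 were not called, where a call is a limma Benjamini-Hochberg adjusted p below 0.05 with a fold change above 1.5. Among all 11289 genes, 19.5% were called higher and 19.2% lower. At an unadjusted p below 0.05, 29 members were higher and 0 lower. In 25 members every Con A + PBS mouse exceeded every control mouse, against 27.1% of all genes. The median log2 fold change of the members was 1.30, beside 0.05 for all genes.

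**Figure D1:**
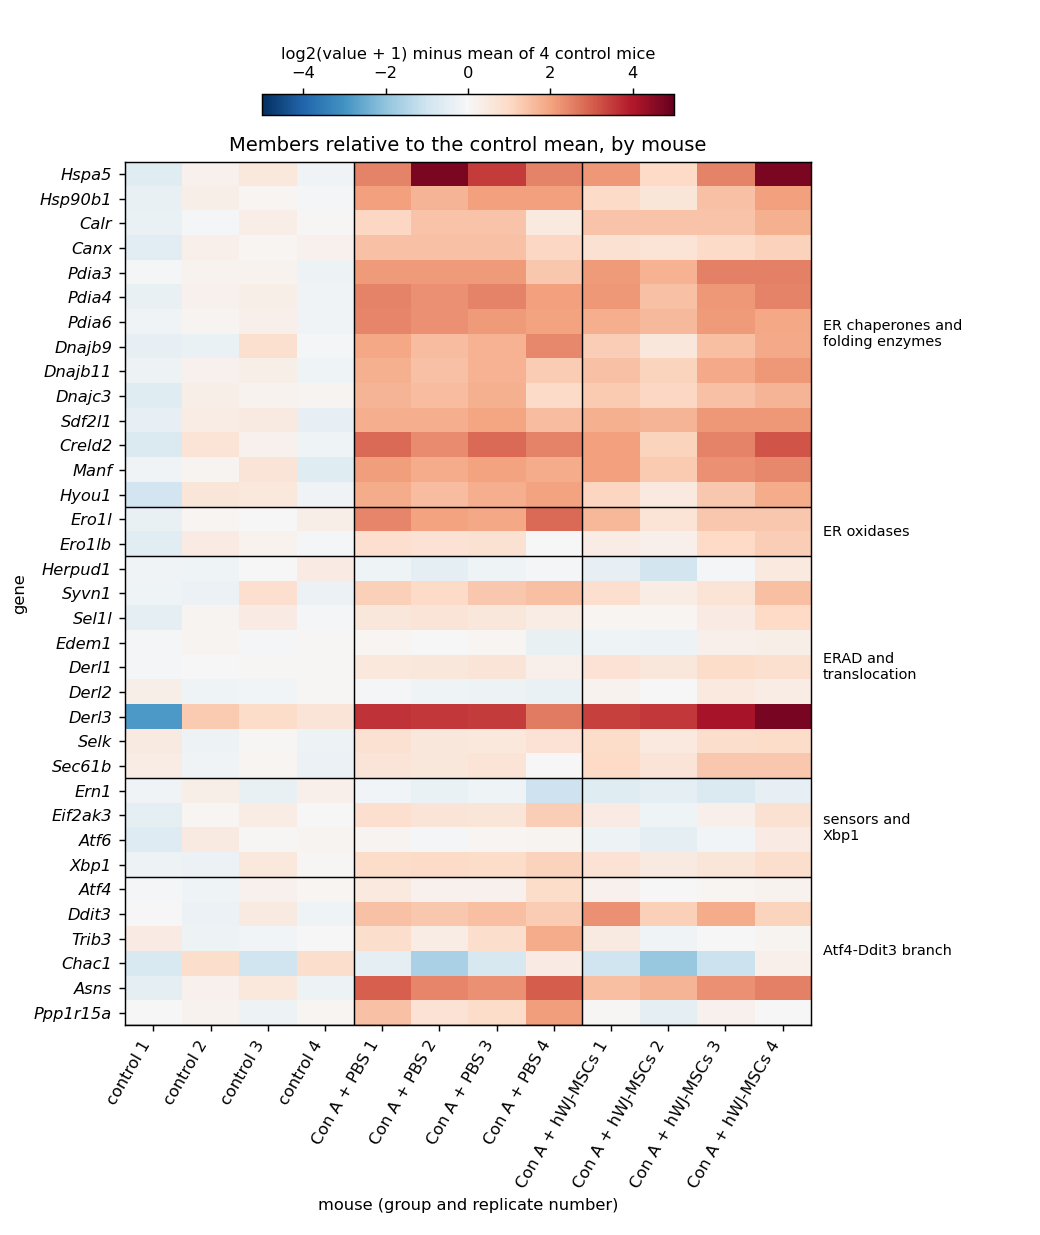
Heat map of the 35 members (y axis, grouped by role) in the 12 mice (x axis), coloured by log2(value + 1) minus the mean of the 4 control mice. The 14 chaperones are red in the 4 Con A + PBS mice and in the 4 Con A + hWJ-MSCs mice, while Herpud1, Edem1, Atf6 and Ern1 stay pale or turn blue.

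The 14 chaperones and folding enzymes were all called higher after Con A + PBS, with log2 fold changes from 1.09 for Calr to 3.30 for Hspa5 and a median of 1.91, and none of the 14 overlapped between the groups. Hspa5, the BiP chaperone that also holds the sensors inactive, read 8577, 15198, 19007 and 11676 in the 4 control mice, 72892, 341028, 148316 and 72892 after Con A + PBS, and 58393, 25900, 72892 and 341028 with hWJ-MSCs. Its lowest value after Con A lay above its highest control value, and 1 mouse of each Con A group sat on the largest value of the table. All its Con A + PBS values lie on the shared steps, so the size of its change is coarse. The log2 fold change of Hspa5 after Con A + PBS was 3.30 ± 0.68 (SE; limma adjusted p = 0.00141). Over the alternative settings, each mouse left out included, it lay between 2.82 and 3.57. Creld2, an ER-resident factor raised in many forms of ER stress, read 438, 1152, 840 and 615 in controls, 5027, 3690, 5027 and 3967 after Con A + PBS, and 2931, 1544, 3967 and 6305 with hWJ-MSCs, a log2 fold change of 2.62 ± 0.38 after Con A + PBS (adjusted p = 1.03e-04). Its Con A + PBS mice stood at least 3690, above the highest control mouse at 1152.

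The 3 listed protein disulfide isomerases, which form and rearrange disulfide bonds, all rose after Con A + PBS. Pdia4 read 3297, 4906, 5225 and 3784 in controls, 23483, 20780, 23483 and 17600 after Con A + PBS, and 18853, 11525, 18853 and 23483 with hWJ-MSCs. Pdia6 read 3826, 4766, 5161 and 3826, then 23755, 21000, 19007 and 17720, then 15198, 13327, 19007 and 16434 in the same order of groups. Pdia3, which works with calnexin and calreticulin on glycoproteins, read 9413, 11601, 11601 and 8535 in controls, 44612, 44612, 44612 and 25819 after Con A + PBS, and 44612, 34385, 58152 and 58152 with hWJ-MSCs. In all 3 isomerases both Con A groups lay wholly above the controls. The log2 fold changes after Con A + PBS were 2.32 ± 0.22 for Pdia4, 2.22 ± 0.15 for Pdia6 and 1.93 ± 0.22 for Pdia3 (limma adjusted p = 4.29e-06, 5.27e-07 and 2.3e-05). Other members of the isomerase family, P4hb (0.43, adjusted p = 0.0742), Pdia5 (0.08, adjusted p = 0.664), Txndc5 (0.48, adjusted p = 0.0205, under the fold threshold) and Erp44 (0.12, adjusted p = 0.448), were not called after Con A + PBS, while the related Dnajc10 (1.74, adjusted p = 2.15e-05) and Erp29 (0.87, adjusted p = 5.74e-04) were called higher.

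The lectin chaperones and the ER member of the Hsp90 family are among the most abundant proteins of the ER. Calr (calreticulin) read 13212, 16327, 20871 and 17650 in controls, 34359, 44548, 44548 and 23596 after Con A + PBS, and 44548, 44548, 44548 and 58110 with hWJ-MSCs. Canx (calnexin) read 4568, 8246, 7354 and 7963, then 18944, 18944, 18944 and 13958, then 11614, 10968, 13247 and 15120. Hsp90b1 (Grp94) read 8202, 13142, 11534 and 10305, then 44292, 34256, 44292 and 44292, then 20792, 16262, 29590 and 44292. The repeated values within Calr, Canx and Hsp90b1 are the shared steps of the table. Their log2 fold changes after Con A + PBS were 1.09 ± 0.22, 1.36 ± 0.19 and 1.97 ± 0.27 (limma adjusted p = 0.00108, 1.01e-04 and 6.95e-05).

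The partners of BiP all lie below 20000 in every mouse. Dnajb9 (ERdj4), a co-chaperone that brings clients to BiP, read 446, 468, 1048 and 578 in controls, 2268, 1719, 1992 and 3130 after Con A + PBS, and 1391, 884, 1709 and 2244 with hWJ-MSCs. Dnajb11 (ERdj3) read 1230, 1724, 1790 and 1260, then 5068, 4129, 4956 and 3608, then 4060, 3212, 5429 and 6578. Dnajc3 (p58IPK), a further J-domain partner, read 2350, 4354, 3960 and 3902, then 11534, 10305, 12175 and 6916, then 8862, 7315, 9819 and 11534. These 3 co-chaperones rose 3.72-fold, 2.97-fold and 2.82-fold after Con A + PBS (limma adjusted p = 2.92e-04, 7.84e-05 and 1.58e-04). Sdf2l1, which forms a complex with Dnajb11, read 424, 724, 762 and 420, then 2000, 2000, 2216 and 1643, then 1944, 1814, 2492 and 2546. Manf, a small ER protein that binds BiP and is secreted under stress, read 1419, 1755, 2540 and 1056, then 6916, 5884, 6498 and 5884, then 6720, 4022, 7908 and 8498. Hyou1 (Grp170), a nucleotide exchange factor of BiP, read 1450, 4370, 4032 and 2522, then 10336, 8224, 9848 and 11574, then 5904, 3970, 7121 and 10336. Sdf2l1, Manf and Hyou1 rose by 1.80 ± 0.21, 1.97 ± 0.26 and 1.81 ± 0.34 on the log2 scale (limma adjusted p = 2.15e-05, 6.61e-05 and 7.38e-04). Dnajb9 and Hyou1 were the 2 chaperones whose hWJ-MSCs mice overlapped the controls, through the single mouse at 884 and the single mouse at 3970.

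The promoters of the chaperones carry a feature that the choice of genes by name did not use. The ER stress element (ERSE), bound by NF-Y together with Atf6 or Xbp1, is spelled CCAAT, then 9 bases of any kind, then CCACG. It was searched on both strands in the 250 bases before each start in the RefSeq promoters of GRCm38.p6, which cover 31 of the 35 members and do not list Manf, Hyou1, Derl1 or Atf6. It occurs in 37 of 32851 promoters (0.113%), in 10 of the 31 members (32.3%) and in 7 of 12 chaperones (58.3%), namely Hspa5, Hsp90b1, Calr, Canx, Pdia6, Dnajc3 and Creld2. The element was first described in promoters of this kind, so the count over chaperones describes the list and is no independent evidence. The stretches of 4 chaperones are shown because they run from the smallest change, in Calr, to the largest, in Hspa5, and hold the element in both orientations. Capitals mark the element, written 5′ to 3′ on the gene's strand. In Calr and Creld2 the element lies in reverse orientation and reads CGTGG, 9 bases, ATTGG.
Hspa5, plus strand, chr2:34772010-34772058: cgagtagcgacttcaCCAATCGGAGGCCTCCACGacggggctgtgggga
Pdia6, plus strand, chr12:17266476-17266524: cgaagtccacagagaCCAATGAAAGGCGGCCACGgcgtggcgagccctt
Calr, minus strand, chr8:84847060-84847108: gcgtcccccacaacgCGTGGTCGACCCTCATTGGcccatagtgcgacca
Creld2, plus strand, chr15:88819505-88819553: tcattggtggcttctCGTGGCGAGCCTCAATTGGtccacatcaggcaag
The elements lie 65 to 47, 98 to 80, 162 to 144 and 126 to 108 bases before the starts of Hspa5, Pdia6, Calr and Creld2. Pdia3, Pdia4, Dnajb9, Dnajb11 and Sdf2l1 rose without this spelling in the window, which says only that these letters are not there.

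**Figure D2:**
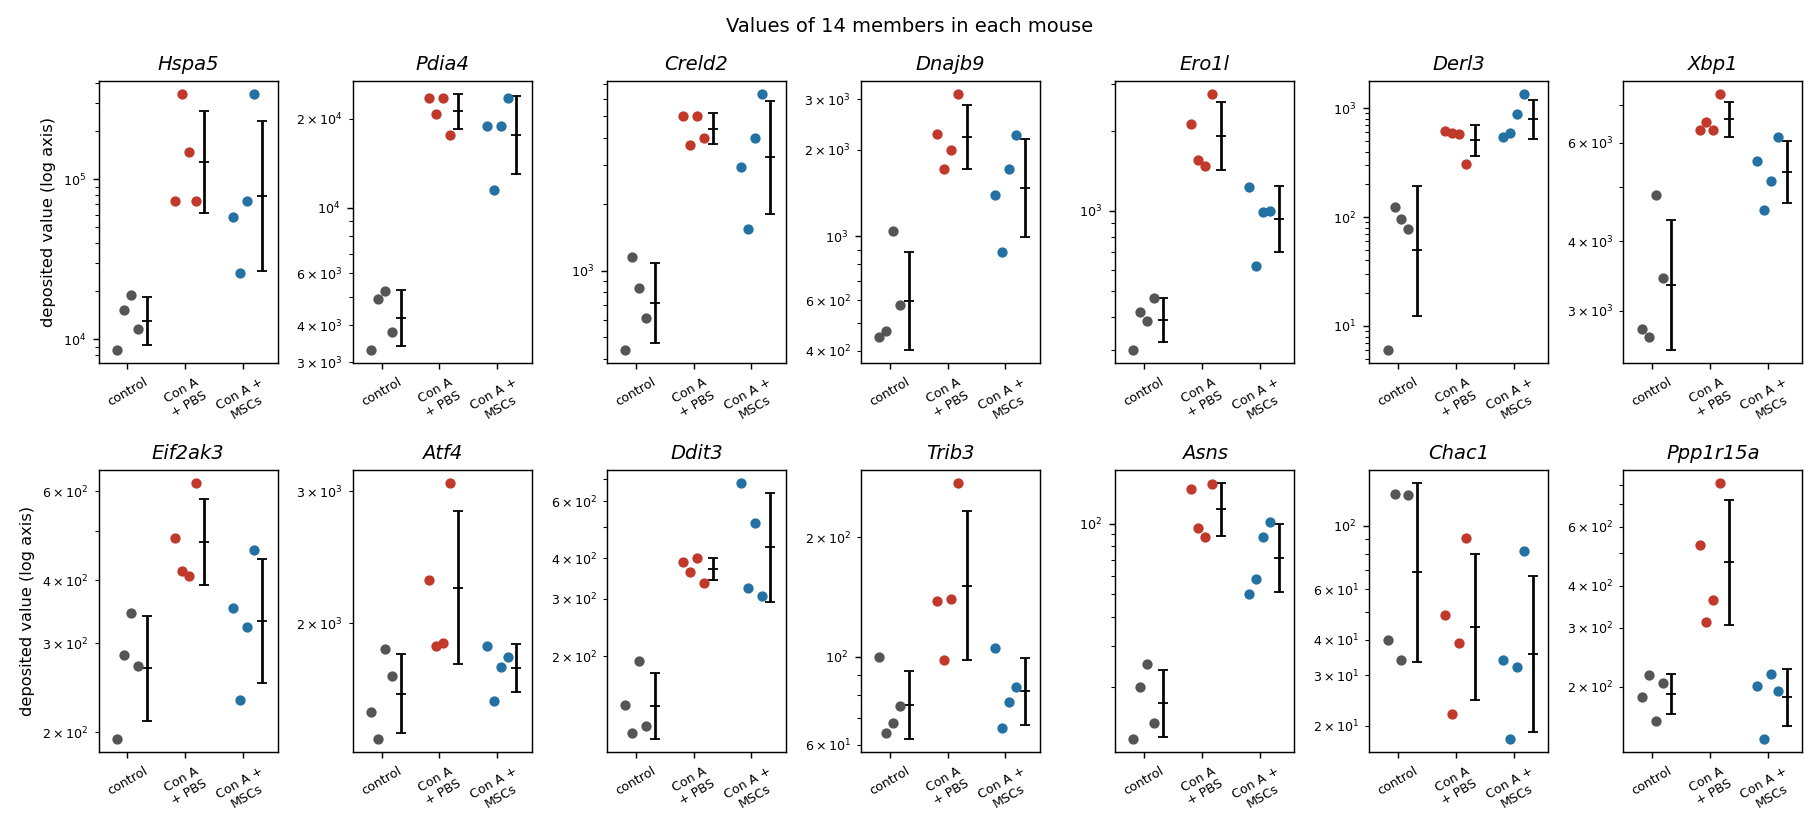
Deposited values (log axis) of 14 members in each mouse, as 1 point per mouse by group, with the mean ± SD on the log2(value + 1) scale beside the points. Hspa5 and Pdia4 stay high with hWJ-MSCs, while Ppp1r15a lies at 140 to 219 there, overlapping the 158 to 217 of the controls.

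Of the 2 oxidases, which reoxidize the disulfide isomerases, Ero1l was called and Ero1lb was not. Ero1l read 299, 418, 386 and 470 in controls, 2125, 1556, 1470 and 2760 after Con A + PBS, and 1230, 622, 990 and 998 with hWJ-MSCs. All 3 groups are separate in Ero1l, with the hWJ-MSCs mice in the middle. Its log2 fold change after Con A + PBS was 2.30 ± 0.24 (limma adjusted p = 9.32e-06). Ero1lb, the second oxidase, lay between 681 and 1359 in controls and between 1020 and 1828 after Con A + PBS and was not called, with a log2 fold change of 0.59 (adjusted p = 0.0779). Ero1lb was called without control mouse 2 (0.73, adjusted p = 0.0462) and without Con A + PBS mouse 4 (0.78, adjusted p = 0.0228).

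ERAD withdraws misfolded proteins through the Syvn1 (Hrd1) complex for degradation. Of 9 genes, 3 were called higher after Con A + PBS (Syvn1, Derl3 and Selk), where 19.5% of all genes were, and 0 lower. At an unadjusted p below 0.05, limma gave 6 higher and 0 lower, and the median log2 fold change was 0.50. Derl3, a derlin of the ER membrane, read 6, 124, 96 and 78 in controls, 621, 592, 580 and 310 after Con A + PBS, and 546, 594, 878 and 1356 with hWJ-MSCs. The value of 6 in control mouse 1 stands far below the other controls, and the groups do not overlap with or without it. The log2 fold change of Derl3 was 3.32 ± 0.72 (limma adjusted p = 0.00193), and 2.37 ± 0.33 without control mouse 1 (adjusted p = 1.86e-04). Syvn1, the ubiquitin ligase, read 1332, 1252, 2753 and 1262, then 3532, 3001, 3910 and 4366, then 2753, 2009, 2521 and 4452, and rose by 1.24 ± 0.28 (adjusted p = 0.00229). Selk (selenoprotein K), a partner of the derlins, read 2096, 1260, 1588 and 1278, then 2596, 2232, 2214 and 2485, then 2885, 2138, 2774 and 2885. Selk rose by 0.64 ± 0.16 (adjusted p = 0.00507), close to the fold threshold, and was not called without control mouse 2 (0.55) or control mouse 4 (0.56).

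The other ERAD and translocation genes were not called after Con A + PBS. Derl1 did not overlap between the groups, at 1861 to 2113 in controls and 2408 to 3186 after Con A + PBS, but its fold change of 1.41 (limma adjusted p = 0.0026) is under the threshold. Sel1l, the scaffold of the Syvn1 complex, had a fold change of 1.46 (adjusted p = 0.0467), and was called without control mouse 3 (log2 fold change 0.67) or Con A + PBS mouse 4 (0.59). Sec61b, a subunit of the translocation channel, had a log2 fold change of 0.48 (adjusted p = 0.0607), and was called without control mouse 1 (0.60) or Con A + PBS mouse 4 (0.63). Herpud1, which recruits the Syvn1 complex and is a textbook stress target, lay at 3957 to 6017 in controls, 3250 to 4258 after Con A + PBS and 2429 to 6494 with hWJ-MSCs. Its log2 fold change after Con A + PBS was -0.26 with a 95% confidence interval from -0.80 to 0.27. Edem1, a mannosidase-like ERAD factor, and Derl2 had values of -0.06 and -0.22.

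The promoters of this group are shown for the contrast between Derl3 and Syvn1, which rose, and Herpud1, which was not called. Of 8 genes with a listed promoter, 2 hold the ERSE (Derl3 in reverse orientation) and Herpud1 alone among all members holds the related ERSE-II, spelled ATTGG, 1 base, CCACG, which occurs in 10 of 32851 promoters (0.0304%). Capitals mark the element.
Derl3, plus strand, chr10:75893227-75893275: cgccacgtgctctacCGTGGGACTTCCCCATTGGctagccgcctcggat
Syvn1, plus strand, chr19:6046517-6046565: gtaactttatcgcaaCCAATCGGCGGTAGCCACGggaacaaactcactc
Herpud1, plus strand, chr8:94386362-94386402: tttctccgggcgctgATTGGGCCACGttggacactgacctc
Ero1lb, with an ERSE as well, was not called after Con A + PBS. A matching spelling thus stands in members that were called and in members that were not.

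Among the sensors, Eif2ak3 rose and Ern1 and Atf6 were not called. Eif2ak3 (Perk) read 194, 284, 344 and 270 in controls, 485, 418, 408 and 625 after Con A + PBS, and 352, 232, 323 and 460 with hWJ-MSCs, a log2 fold change of 0.83 ± 0.22 after Con A + PBS (limma adjusted p = 0.00646). Its Con A + PBS mice lay above all controls, and its hWJ-MSCs mice overlapped both groups. Ern1 lay at 944 to 1488 in controls, 596 to 1096 after Con A + PBS and 738 to 915 with hWJ-MSCs. Atf6 lay at 666 to 1410, 990 to 1162 and 756 to 1380. Xbp1, the factor whose mRNA Ire1 splices, read 2784, 2690, 4826 and 3442, then 6310, 6521, 6310 and 7334, then 5552, 4552, 5130 and 6150, and rose by 0.98 ± 0.17 after Con A + PBS (adjusted p = 4.52e-04). The Con A + PBS mice exceeded all controls and all hWJ-MSCs mice in Xbp1.

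In the Atf4-Ddit3 branch 4 of 6 genes were called higher after Con A + PBS and 0 lower (5 higher and 0 lower at an unadjusted p below 0.05), where 19.5% of all genes were called higher and 19.2% lower, with a median log2 fold change of 1.15. Atf4, the transcription factor of the integrated stress response, read 1523, 1402, 1850 and 1702 in controls, 2282, 1865, 1884 and 3079 after Con A + PBS, and 1865, 1574, 1746 and 1804 with hWJ-MSCs. The Con A + PBS mice lay above the controls by a narrow margin, and a fold change of 1.38 (limma adjusted p = 0.0216) left Atf4 uncalled. Ddit3 (Chop), its pro-apoptotic partner, read 142, 116, 194 and 122, then 390, 362, 400 and 336, then 684, 324, 514 and 306. Ddit3 rose by 1.40 ± 0.24 (adjusted p = 3.67e-04), and all 8 Con A mice exceeded all controls. Its exons are overlapped by another annotated gene, Mars, and the library kit is not stated to keep the strand, so reads of the 2 genes may not be told apart, and the same holds for Ppp1r15a and Tulp2.

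Of the 4 targets of the branch, 3 were called higher and Chac1 was not called. Asns, asparagine synthetase, read 12, 20, 25 and 14 in controls, 141, 96, 88 and 148 after Con A + PBS, and 50, 58, 88 and 102 with hWJ-MSCs, a log2 fold change of 2.69 ± 0.30 after Con A + PBS (limma adjusted p = 1.73e-05). Both Con A groups lay above the controls in Asns, whose values are among the lowest of the members. Every gene in the table reaches 64 in at least 2 mice, and Asns reads at most 25 in controls. Asns is thus in the table only through the Con A mice, and its place among the called genes is no independent evidence. Trib3, a pseudokinase that restrains Atf4 and Ddit3, read 100, 64, 68 and 75, then 138, 98, 140 and 275, then 105, 66, 77 and 84, and rose by 0.99 ± 0.27 (adjusted p = 0.00825) with groups that overlap at 98 and 100. Ppp1r15a (Gadd34), which brings the phosphatase that reverses eIF2 phosphorylation, read 186, 217, 158 and 206, then 531, 313, 362 and 813, then 201, 140, 219 and 194. It rose by 1.30 ± 0.25 (adjusted p = 9.9e-04). Chac1, which degrades glutathione and is a textbook Atf4 target, lay at 34 to 129 in controls, 22 to 91 after Con A + PBS and 18 to 82 with hWJ-MSCs, with a log2 fold change of -0.63 and an interval from -1.86 to 0.61.

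None of the 6 promoters of the branch holds this spelling of the ERSE in the 250 bases searched, which says only that these letters are not there. The C/EBP-ATF element, spelled TGATGNAA, occurs in 1134 of 32851 promoters (3.45%) and in Asns, Chac1 and Herpud1 among the members. Asns and Chac1 are shown because the first rose and the second was not called. Capitals mark the element, which in Chac1 lies in reverse orientation.
Asns, minus strand, chr6:7693210-7693247: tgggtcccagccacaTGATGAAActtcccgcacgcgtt
Chac1, plus strand, chr2:119351034-119351071: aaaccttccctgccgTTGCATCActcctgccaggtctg
The elements lie 23 to 16 bases before the start of Asns and 193 to 186 before that of Chac1.

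With hWJ-MSCs, 0 of the 35 members were called higher than after Con A + PBS and 2 were called lower, Ero1l and Ppp1r15a, while 33 were not called. Among all genes, 4.2% were called higher and 4.38% lower in this comparison. At an unadjusted p below 0.05, 3 members were higher and 9 lower by limma. The median log2 fold change of the members was -0.19, beside 0.00 for all genes. Every hWJ-MSCs mouse lay below every Con A + PBS mouse in 3 members (Ero1l, Xbp1 and Ppp1r15a), where 11.6% of all genes did so, and above in 1 member (Derl2), where 11.9% did.

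**Figure D3:**
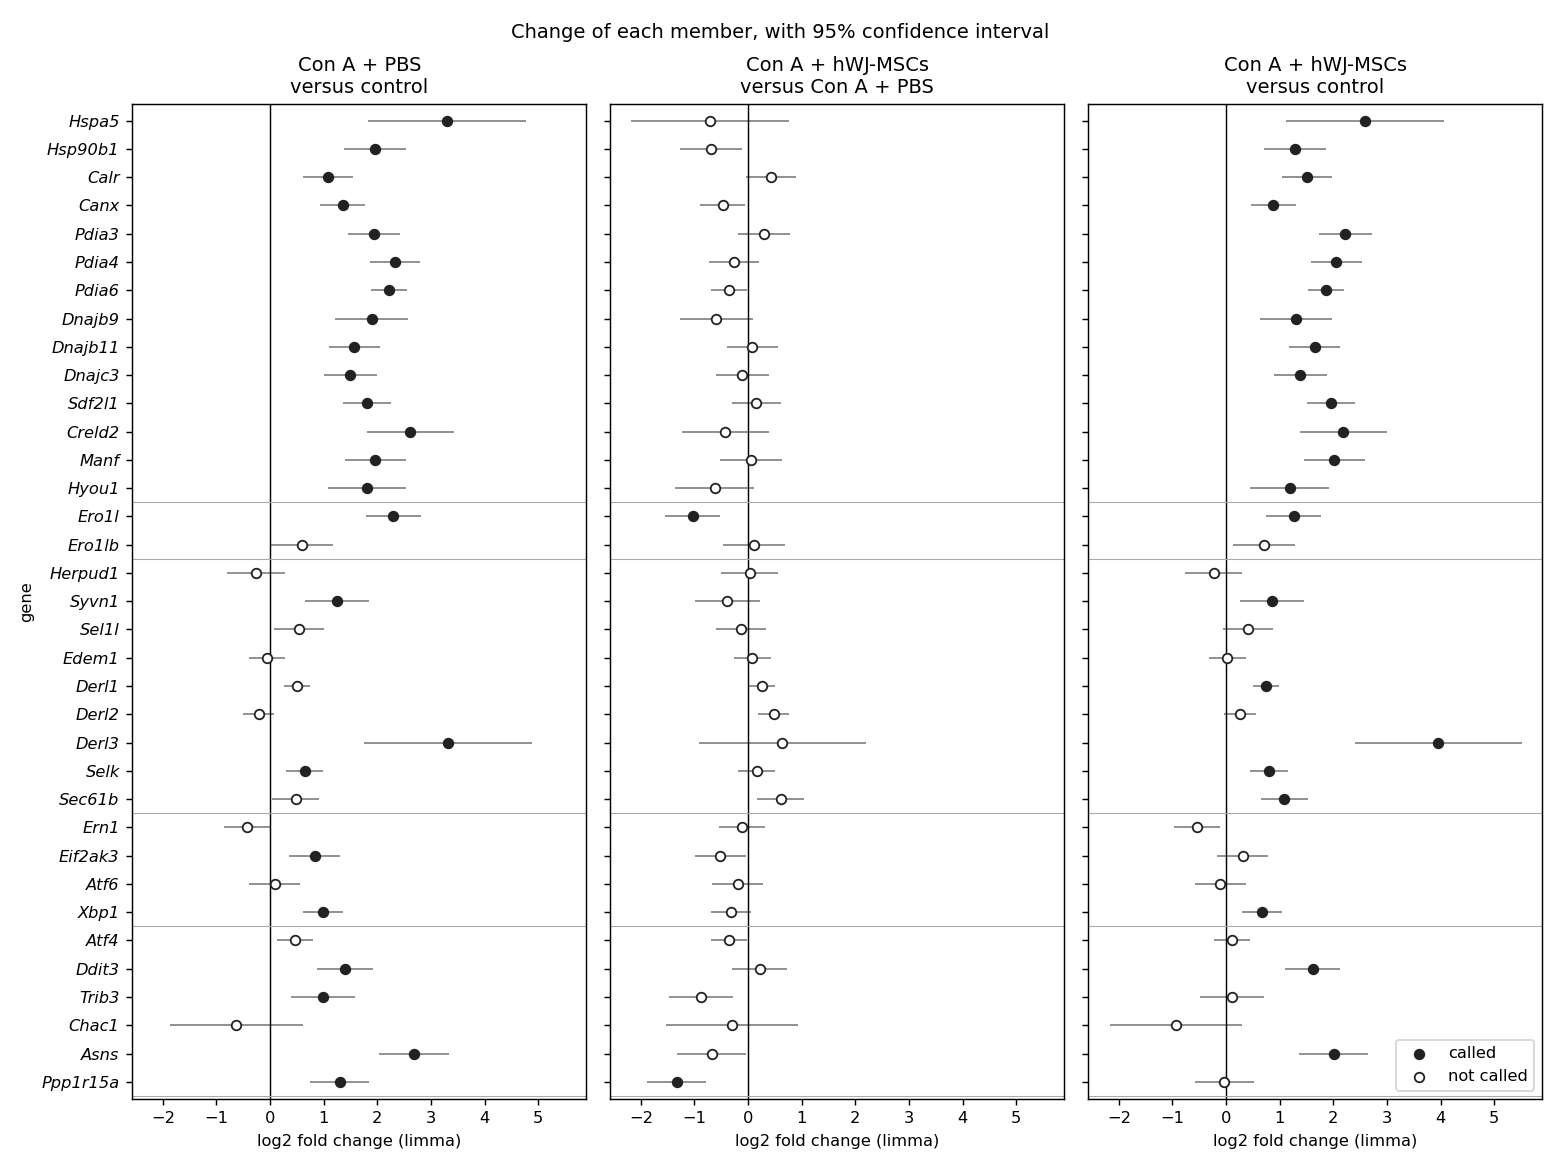
log2 fold change (x axis, limma) of each member (y axis) with its 95% confidence interval in the 3 comparisons, filled where called. In the middle panel only Ero1l and Ppp1r15a are filled, and the intervals of most chaperones cross 0.

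The 2 members called against Con A + PBS, Ppp1r15a and Ero1l, stand beside the 4.38% of all genes called lower. Ppp1r15a was lower by -1.33 ± 0.25 on the log2 scale (limma adjusted p = 0.0198), with all 4 hWJ-MSCs mice at 140 to 219 and all 4 Con A + PBS mice at 313 to 813. Against the control group its log2 fold change with hWJ-MSCs was -0.03, with an interval from -0.59 to 0.52. Ero1l was lower by -1.04 ± 0.24 (adjusted p = 0.0255), and stayed above the control group by 1.26 (adjusted p = 0.00129). The call of Ppp1r15a was lost without Con A + PBS mouse 1 (-1.28, adjusted p = 0.0696), hWJ-MSCs mouse 2 (-1.20, adjusted p = 0.066) or hWJ-MSCs mouse 3 (-1.41, adjusted p = 0.0557). That of Ero1l was lost without Con A + PBS mouse 1 (-0.99, adjusted p = 0.0774) or mouse 4 (-0.86, adjusted p = 0.0545), and without hWJ-MSCs mouse 2 (-0.84, adjusted p = 0.0765) or mouse 3 (-1.06, adjusted p = 0.0665).

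None of the 14 chaperones was called between the Con A groups, and at an unadjusted p below 0.05 limma gave 0 higher and 3 lower. Their median log2 fold change was -0.31, in a range from -0.71 for Hspa5 to 0.42 for Calr. Without hWJ-MSCs mouse 4, at the largest value of the table, Hspa5 had -1.42 (limma adjusted p = 0.0837). The interval of the difference was -2.19 to 0.77 for Hspa5, -0.74 to 0.20 for Pdia4, -0.68 to -0.02 for Pdia6 and -0.52 to 0.63 for Manf, so decreases of some size are compatible with these values. Hsp90b1 had -0.69 (limma adjusted p = 0.0915) and was called lower without hWJ-MSCs mouse 4 (-0.95, adjusted p = 0.0251). The hWJ-MSCs mice spread more widely than the Con A + PBS mice in the chaperone mean, and mouse 2 was the lowest of its group in 14 of 14 chaperones while mouse 4 was the highest in 13, ties included.

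Other members lay near the threshold between the Con A groups. Trib3 had -0.88 ± 0.27 (limma adjusted p = 0.0518), and was called lower without control mouse 1 (adjusted p = 0.0456) or Con A + PBS mouse 2 (-1.08, adjusted p = 0.0207). Sec61b had 0.61 ± 0.20 (adjusted p = 0.0608) and was called higher without control mouse 1 (adjusted p = 0.0493). Derl2 was the member with all hWJ-MSCs mice, at 1730 to 2387, above all Con A + PBS mice, at 1360 to 1609, with a fold change of 1.39 (adjusted p = 0.0406) that is under the fold threshold. Ddit3 had 0.22 with an interval from -0.30 to 0.73, and its 4 hWJ-MSCs mice at 306 to 684 overlapped the Con A + PBS mice at 336 to 400.

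With hWJ-MSCs against the control group, 23 members were called higher, 0 lower and 12 were not called, where 13.6% of all genes were called higher and 13.1% lower. At an unadjusted p below 0.05, 24 were higher and 1 lower, and in 19 members the hWJ-MSCs mice all exceeded the controls, against 20.6% of all genes. All 14 chaperones were among the 23, with log2 fold changes from 0.88 for Canx to 2.59 for Hspa5. Hspa5 had 1.88 (limma adjusted p = 0.0179) without hWJ-MSCs mouse 4, which sits on the largest value of the table. Of the members called against the control group, 21 were called in both Con A groups, 3 only with PBS (Eif2ak3, Trib3 and Ppp1r15a) and 2 only with hWJ-MSCs (Derl1 and Sec61b). The 2 comparisons share the control mice, and a call in 1 of them alone does not show a difference between the Con A groups, which for Eif2ak3 was -0.52 (limma adjusted p = 0.115) and for Derl1 0.25 (adjusted p = 0.134). Derl1 had 0.75 (adjusted p = 2.92e-04) and Sec61b 1.09 (adjusted p = 0.00123) against control. The call of Xbp1 at 0.67 (adjusted p = 0.00846) fell under the fold threshold without control mouse 1 (0.58) or mouse 2 (0.57). Syvn1 at 0.85 (adjusted p = 0.0262) was not called without control mouse 1, 2 or 4 or without hWJ-MSCs mouse 1 or 4, with values from 0.63 to 0.86 and adjusted p from 0.0526 to 0.0755. Ern1 was the 1 member lower in every hWJ-MSCs mouse than in every control mouse, where 17.3% of all genes were, with -0.55 (adjusted p = 0.0433), under the fold threshold, and it was called lower without control mouse 1 (-0.61) or mouse 3 (-0.67). Ero1lb, at 0.70 (adjusted p = 0.0517), was called higher without control mouse 2, Con A + PBS mouse 4, or hWJ-MSCs mouse 1 or 2, with values from 0.70 to 0.86.

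To set the chaperones against the Atf4-Ddit3 branch, the mean log2(value + 1) of the 14 and of the 6 genes was taken in each mouse. These are levels that are not scaled to gene length, so only their changes between mice are read. The chaperone mean was 11.68 ± 0.36 in controls, 13.63 ± 0.16 after Con A + PBS and 13.40 ± 0.48 with hWJ-MSCs (SD, n = 4). The branch mean was 6.99 ± 0.12, 8.03 ± 0.44 and 7.47 ± 0.29. All 8 Con A mice lay above the 4 controls in the chaperone mean, and in the branch mean the hWJ-MSCs mouse 2, at 7.05, lay within the controls at 6.83 to 7.09.

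**Figure D4:**
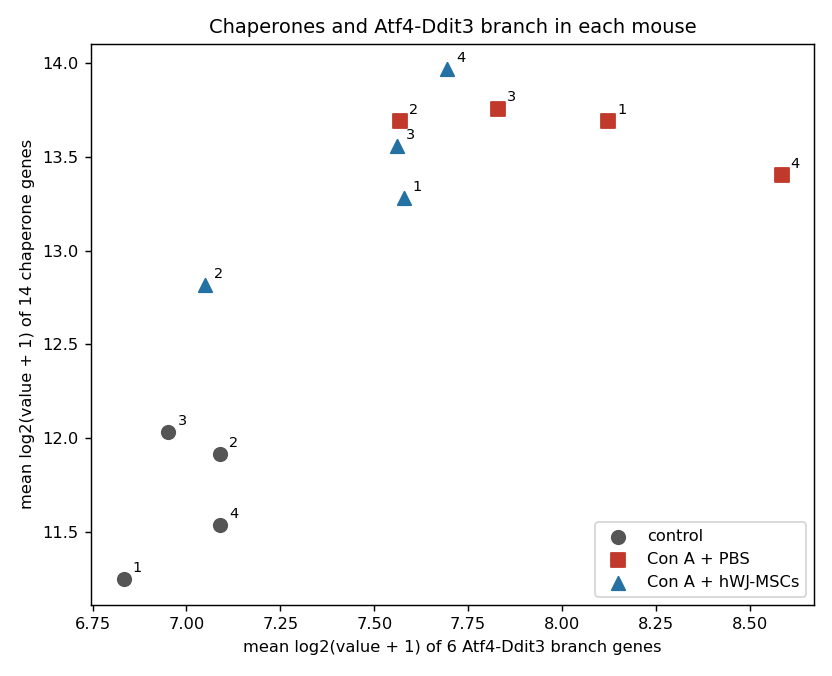
Mean log2(value + 1) of 14 chaperone genes (y axis) against that of 6 Atf4-Ddit3 branch genes (x axis), 1 point per mouse, labelled with its replicate number. The control mice lie at the lower left, the Con A + PBS mice lie at 7.57 to 8.58 on the x axis and 13.40 to 13.76 on the y axis, and the hWJ-MSCs mice overlap them on both, at 7.05 to 7.69 and 12.81 to 13.97.

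The chaperone mean minus the branch mean was 4.41, 4.83, 5.08 and 4.45 in the control mice, 5.57, 6.12, 5.93 and 4.82 after Con A + PBS, and 5.70, 5.76, 5.99 and 6.27 with hWJ-MSCs. The hWJ-MSCs mice all exceeded the controls, while Con A + PBS mouse 4 lay among them, with the highest Atf4, Trib3, Asns and Ppp1r15a of its group but the lowest Ddit3, at 336, and with the lowest value in 10 of 14 chaperones and the highest in 3, ties included. The group mean of the difference was 0.92 higher after Con A + PBS than in controls, 1.24 higher with hWJ-MSCs than in controls, and 0.32 higher with hWJ-MSCs than after Con A + PBS, where the pooled SD over mice was 0.41. The last difference is smaller than that spread, and without Con A + PBS mouse 4 it was 0.06. No test was made of these means because the members were chosen with results of these data known.

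Further genes of the same pathways were read from 6 lists, beside the 19.5% of all genes called higher and 19.2% lower after Con A + PBS, and the 13.6% and 13.1% with hWJ-MSCs against controls. Of 30 genes of the translocon, signal peptidase and N-glycosylation, 16 were called higher after Con A + PBS and 0 lower, 0 were called between the Con A groups (limma gave 9 higher and 0 lower at an unadjusted p below 0.05), and 24 were called higher with hWJ-MSCs than in controls. Ssr3, a subunit of the translocon-associated complex, and Rpn1, of the oligosaccharyltransferase, rose by 1.66 and 1.51 after Con A + PBS (adjusted p = 7.91e-05 and 1.49e-05). Of 21 other ER folding enzymes, 5 rose and 1 fell after Con A + PBS, and 9 rose with hWJ-MSCs against controls. In this list Fkbp2 was called higher with hWJ-MSCs than after Con A + PBS (0.63, adjusted p = 0.0328), and 9 genes were higher and 1 lower at an unadjusted p below 0.05. Dnajc10 rose by 1.74 and Fkbp11 by 1.60, while Fkbp14 fell by 0.78 (adjusted p = 2.15e-05, 6.65e-05 and 0.00339). Of 19 other ERAD and ubiquitin factors 2 rose, Edem3 and Ube2g2 by 0.90 and 0.84, and 1 fell, Rnf5 by 0.83 (adjusted p = 0.00218, 9.25e-04 and 2.52e-04). Rnf5 was called higher with hWJ-MSCs than after Con A + PBS (0.61, adjusted p = 0.0247).

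In the lists around eIF2 and Atf4 some genes were called lower with hWJ-MSCs than after Con A + PBS, a comparison in which 4.38% of all genes were called lower and 4.2% higher. Of 26 other Atf4 targets in the table, 13 rose and 3 fell after Con A + PBS, 7 were called lower and 0 higher with hWJ-MSCs than after Con A + PBS (11 lower and 3 higher at an unadjusted p below 0.05), and 7 were higher and 6 lower with hWJ-MSCs than in controls. Slc7a11, Pycr1, Stc2 and Jdp2 were not found. Every gene in the table reaches 64 in at least 2 mice. Atf3, Psat1, Slc7a1, Phgdh and Mthfd2 stayed below 64 in all controls and are there only through the Con A mice, which favours genes that rose. Atf3, a stress-induced repressor, rose by 5.15 after Con A + PBS (limma adjusted p = 5.57e-05), from 18 to 37 in controls to 372 to 3488, and was lower by -2.64 with hWJ-MSCs (adjusted p = 0.0321), at 64 to 302. The other Atf4 targets called lower were Cebpb, Sesn2, Vldlr, Slc3a2, Slc7a5 and Slc7a1, the last 3 of amino acid transport. Sesn2 and these 3 transport genes had been called higher after Con A + PBS. Cebpb and Vldlr had not (0.30 and 0.30, limma adjusted p = 0.467 and 0.671). With hWJ-MSCs, Cebpb and Vldlr were called lower than in controls (-0.93 and -1.545). Psat1, of serine synthesis, rose by 5.23 from 0 to 24 in controls, a fold that depends on the added 1 at such values (adjusted p = 2.32e-04). Cth and Cbs, the transsulfuration enzymes that hepatocytes express highly, fell by 2.89 and 1.05 (adjusted p = 3.8e-04 and 4.39e-04). Of 14 genes of the eIF2 kinases, eIF2 and eIF2B, 5 rose after Con A + PBS and 1 was lower with hWJ-MSCs, the interferon-induced kinase Eif2ak2, by 1.42 and by -0.98 (adjusted p = 7.64e-05 and 0.0208). Eif2s1, the subunit of eIF2 that is phosphorylated, rose by 1.19 (adjusted p = 1.06e-05). Of 18 other regulators 8 rose and 1 fell after Con A + PBS. Creb3l1 rose by 1.74 and the death receptor Tnfrsf10b, a Ddit3 target, by 2.96 (adjusted p = 1.59e-05 and 4.2e-06), and Bbc3 fell by 1.25 (adjusted p = 3.09e-05). Tnfrsf10b was lower by -1.87 with hWJ-MSCs (adjusted p = 0.0149). Creb3l1 and Tnfrsf10b also stayed below 64 in controls and are in the table only through the Con A mice.

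Markers of other cells moved with the Con A groups. Of 15 hepatocyte markers 8 were called lower and 1 higher after Con A + PBS, while all 8 neutrophil markers of 10 listed and all 4 T and NK cell markers of 13 listed that are in the table were called higher. Every gene in the table reaches 64 in at least 2 mice. These neutrophil, T and NK cell markers, except Csf3r, stayed below 64 in every control mouse. They are in the table only through the Con A mice, so their rise was largely fixed in advance. The summed neutrophil markers went from 73 to 163 in controls to 1268 to 2166 after Con A + PBS and 885 to 1875 with hWJ-MSCs, and the summed T and NK cell markers from 31 to 66 to 480 to 955 and 506 to 828. Of 12 macrophage and monocyte markers 5 were higher and 6 lower, with sums of 3597 to 5501, 6315 to 7590 and 3153 to 5019, of which Cd14 made 49 to 60, 4032 to 5380 and 1009 to 2784. The mean log2(value + 1) of these 12 was 7.43, 7.30 and 7.36, and the Kupffer cell markers Clec4f and Vsig4 had log2 fold changes of -4.90 and -4.54 after Con A + PBS (adjusted p = 9.09e-07 and 5.26e-06). Of 9 endothelial markers 1 was higher and 6 were lower, with sums of 3231 to 4479, 1587 to 2199 and 1746 to 2379. Plasma cells and B cells hold much ER, but only 3 of their 11 markers are in the table, with sums of 5150 to 5523, 4967 to 8150 and 3775 to 4146, most of it Sdc1 at 5030 to 5380, 4826 to 7936 and 3639 to 3970, while Prdm1 was called higher after Con A + PBS (2.37, adjusted p = 0.00462) at 26 to 116 against 5 to 18 in controls and Igj was not (-0.23, adjusted p = 0.484), and Mzb1, Cd79a and Tnfrsf17 were not found by symbol. Prdm1 too is in the table only through the Con A mice. Between the Con A groups 0 hepatocyte, 0 neutrophil and 0 T and NK cell markers were called (limma gave 3, 2 and 0 at an unadjusted p below 0.05). In that comparison Cd14 was lower (-1.33, adjusted p = 0.0188), as were Sdc1 (-0.62, adjusted p = 0.0248) and the endothelial Cdh5 and Lyve1 (-0.66 and -0.90, adjusted p = 0.0443 and 0.0224), and Stab2 was higher (0.59, adjusted p = 0.0199). The part of these cells in the changes of the ER stress genes was not tested.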

How the data were processed

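Liver RNA of 12 mice, 4 per group by the labels, was read as paired ends of 150 bp. The submitters' processing notes name Bowtie2 2.2.1, RSEM 1.2.18 and mm10, with no role or order. The authors deposited whole-number scores already normalized between mice, by a method not given in the sources used here. Their name calls them counts, but all medians are 352 and totals nearly equal, so no count test was run and the limma test planned for normalized values was used. Every gene reaches 64 in at least 2 mice. Of the member transcripts, 33 are in GENCODE M21, 31 of them protein coding and 2 retained introns (Hsp90b1, Pdia6), and those of Hspa5 and Ppp1r15a were not found there. Exons of 11 members overlap another gene (Hsp90b1, Pdia3, Pdia4, Pdia6, Dnajb9, Manf, Syvn1, Derl2, Eif2ak3, Ddit3 and Ppp1r15a). The limit given for Ddit3 and Mars may apply to each of them.

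The log2 of each score plus 1 went into a limma 3.58.1 fit (R 4.3.3, lmFit, eBayes with a trend) over all 12 mice without covariates, and p-values were adjusted by Benjamini-Hochberg over 11289 genes. A call needed a fold change over 1.5 and an adjusted p under 0.05. Fold changes are on the log2(score + 1) scale, which understates low genes. The labels say no more of the replicates than that they are separate mice. Scripts ran in Python 3.11.15 with pandas 2.3.3, numpy 2.4.6 and matplotlib 3.10.9, and the fit was tested on simulated data. The members, the lists and the motifs were chosen with earlier results of these data known. Every member is named, with values in each mouse for Hspa5, Xbp1, Atf4, Ddit3 and those called after Con A + PBS or between the Con A groups, and from each other list the 2 genes that rose most and the 2 that fell most among those called after Con A + PBS. The Atf4 targets called lower with hWJ-MSCs, Fkbp2, the other isomerases and the single markers were named after their values were seen.

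Alternatives covered the pseudocount (10), a filter on the mean score (100 or more), median centring, quantile normalization, a fit of 2 groups at a time, eBayes with no trend, p without adjustment, a fold threshold of 2, the replicate number as a block and leaving out each mouse. Promoters came from RefSeq on GRCm38.p6.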

Additional observations from a re-analysis of the deposited data

Results flagged for a closer look

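In 9 of the 105 groups of 4 mice tested, over the 35 members, the mouse at one end stood apart from the other 3 by Dixon's criterion at 95%, where chance gives about 1 in 20. Of the 9, 4 lie on shared steps, which for Canx extend below 20000, and there the other 3 mice hold 1 tied value. They are Hsp90b1 in Con A + PBS mouse 2 (34256, others 44292), Calr in hWJ-MSCs mouse 4 (58110, others 44548), Canx in Con A + PBS mouse 4 (13958, others 18944) and Pdia3 in Con A + PBS mouse 4 (25819, others 44612). Con A + PBS mouse 4 also stood apart in Ero1lb (1020, others 1670 to 1828) and in Derl3 (310, others 580 to 621). Derl3 stood apart in control mouse 1 (6, others 78 to 124) as well. The remaining values were Syvn1 in control mouse 3 (2753, others 1252 to 1332) and Selk in hWJ-MSCs mouse 2 (2138, others 2774 to 2885).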

How the results depend on the processing

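Of the 49 calls of members in the 3 comparisons, 38 were lost under no alternative and 0 were reversed. Some of these alternatives could hardly lose a call. Median centring could change nothing, since every mouse already has the median 352, and the unadjusted p can only add calls. Quantile normalization changed little, since the values were already normalized between mice. The 24 members higher after Con A + PBS and the 23 higher with hWJ-MSCs than in controls stayed within 1.5 times under every alternative run. Between the Con A groups, members called lower went from 2 to 5 with the unadjusted p (Hsp90b1, Trib3 and Asns added) and lay between 0 and 3 when 1 mouse was left out. Members called higher there went from 0 to 1 with the unadjusted p (Sec61b) and lay between 0 and 1 when 1 mouse was left out. Members called lower with hWJ-MSCs than in controls lay between 0 and 1 when 1 mouse was left out (Ern1). The unadjusted p added no such member. A fold change above 2 ended the calls of Selk, Eif2ak3, Xbp1 and Trib3 after Con A + PBS and of Canx, Syvn1, Derl1, Selk and Xbp1 with hWJ-MSCs against controls. The mean score of at least 100 gives no value for Asns or Chac1. The branch mean there thus lacks both its most raised gene and its only gene with a decrease after Con A + PBS. A branch mean without Chac1 alone was not tested. The chaperone mean minus the branch mean moved by less than the SD over mice under all alternatives, including 8 chaperones that do not reach 20000, chosen after seeing the data (0.78, 0.31 and 1.09 for the 3 comparisons). Some of these 8, such as Canx at 18944, hold tied values as well. Mice of the same number are different animals, and their deviations from the group means correlated at -0.12 to 0.38, so the numbers do not pair the mice. With the replicate number as a block 24 members were higher after Con A + PBS and 23 with hWJ-MSCs against controls, and between the Con A groups 1 was higher (Sec61b) and 3 lower (Trib3 added). Depth is unknown, and the shared steps limit how finely the highest chaperones can be read.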
